A study of Mus musculus with 6 samples.

Results

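Extracellular vesicles (EVs) carry microRNAs (miRNAs) out of the cells that made them. The 7 mature miRNAs described here are markers of blood cells, microglia and endothelium, and were read as 7 of the 902 mature miRNA rows in a small RNA-sequencing count table. They were selected by name: mmu-miR-142a-5p, mmu-miR-142a-3p, mmu-miR-223-3p, mmu-miR-342-3p and mmu-miR-150-5p for white blood cells and microglia, and mmu-miR-126a-5p and mmu-miR-126a-3p for endothelium. The species prefix is left out below. Astrocyte EVs came from primary cortical astrocytes of CD1 mice, cultured from postnatal day 4 pups, and NSC EVs from primary neural stem cells of the subventricular zone (SVZ) of neonatal CD1 mice. Each group has 3 libraries, the labels give no treatment, and there are no other groups. The study's methods state that the astrocyte cultures were shaken to remove microglia and then oligodendrocytes, and that medium with fetal bovine serum and exosome-free medium were both used, so these cultures are enriched cell populations and not sorted ones. The labels do not tell if replicates are distinct cultures or animals, and each p-value therefore reflects the spread among these libraries only, which may be technical. Values of single libraries are given in the order of replicates 1 to 3.

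A miRNA hairpin is cut into 2 arms, 5p and 3p, and the arm that is loaded into Argonaute pairs with mRNAs through its seed, bases 2 to 8. miR-142 is made throughout the blood lineage, which includes microglia, and is used as a marker of these cells in brain tissue. miR-223 is known from granulocytes and monocytes, and miR-150 from mature lymphocytes, where it acts on the transcription factor Myb. miR-342 is made in blood cells and is also found in brain tissue. miR-126, from the endothelial gene Egfl7, supports vessel growth by restraining inhibitors of VEGF signaling.

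The mature sequences below are shown because each seed can be compared with the level of its own arm. RefSeq (GRCm38.p6) held mature sequences for 5 of the 7 members, and for the opposite arms of miR-223 and miR-342. The seed is in capitals.
miR-142a-5p: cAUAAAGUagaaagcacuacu
miR-142a-3p: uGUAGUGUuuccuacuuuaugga
miR-223-3p: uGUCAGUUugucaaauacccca
miR-223-5p: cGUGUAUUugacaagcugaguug
miR-342-3p: uCUCACACagaaaucgcacccgu
miR-342-5p: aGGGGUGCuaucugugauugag
miR-126a-3p: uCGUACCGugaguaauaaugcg
No seed was shared among these sequences, and 0 other mature miRNAs in the RefSeq table had the same seed as any of them or lay within 3 mismatches over the whole sequence.

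In mm10 coordinates all members lie on the + strand. miR-142a-5p is at chr11:87756867-87756887 and miR-142a-3p at chr11:87756903-87756925, in Mir142 and in an intron of the lincRNA Mir142hg. miR-223-3p is at chrX:96242884-96242905, in Mir223 and in an exon of F630028O10Rik. miR-342-3p is at chr12:108658680-108658702, in an intron of the protein-coding gene Evl. miR-150-5p is at chr7:45121762-45121783, in Mir150. miR-126a-5p is at chr2:26591365-26591385 and miR-126a-3p at chr2:26591402-26591423, inside Egfl7, where they are exonic in 1 of the 9 annotated transcripts that span them. The annotation also places Mir142b and Mir126b on the opposite strand. miR-142b overlaps miR-142a-3p by 20 bases, miR-126b-3p overlaps miR-126a-5p by 21 bases, and miR-126b-5p overlaps miR-126a-3p by 19 bases. None of these 3 antisense miRNAs has a row of its own in the table, and the sources used here do not say whether counting used strand, so reads from an antisense partner cannot be told apart from reads of the member.

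Astrocyte EV libraries held 72359982 to 111851274 counts, and NSC EV libraries 44620985 to 50898531. Mature miRNAs received 182075 to 399211 of them in astrocyte EVs, against 177093 to 259560 in NSC EVs, and levels are given as CPM of the mature counts, that is, counts scaled to a library of a fixed size, scaled by TMM. A count of 0 allows up to 3 counts, or 7.51 to 16.9 CPM before TMM. Fold limits below set 3 counts in the group at 0 against the pooled counts of the other group, whose own error is not included. Astrocyte EV replicate 3 stood apart from the others of its group. It had 15329 counts of miR-9-5p, against 262 and 388 in astrocyte EV replicates 1 and 2, and 1220 counts of miR-143-3p, against 10763 and 10736. It also had 32125 counts of miR-486a-5p, a red blood cell miRNA, against 3980 and 7893. Results below were therefore also computed without it. Intervals on counts cover counting error only.

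The members were rare in both EV types. Together they took 0.0551% ± 0.0379 of mature counts in astrocyte EVs and 0.177% ± 0.0613 in NSC EVs (SD, n = 3 each). Astrocyte EV replicate 2 had the highest share of its group, and without it the astrocyte EV mean was 0.0333%. The 2 arms of miR-126a accounted for most of the NSC EV share. These endothelial arms took 0.00879%, 0.0181% and 0.00551% of mature counts in the astrocyte EV libraries, against 0.199%, 0.180% and 0.0853% in the NSC EV libraries. The lowest NSC EV share had a 95% Wilson interval of 0.0727% to 0.09999%, and the highest astrocyte EV share one of 0.0132% to 0.0249%. The 5 blood and microglial members took 0.0443% ± 0.0318 in astrocyte EVs and 0.0223% ± 0.00999 in NSC EVs (SD, n = 3 each), and the groups overlapped. The astrocyte EV mean of these 5 was 0.0261% without replicate 2. For the endothelial arms it was 0.00715% without replicate 2. In bulk EV RNA, fewer vesicles from a cell type and fewer copies per vesicle cannot be told apart.

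**Figure D1:**
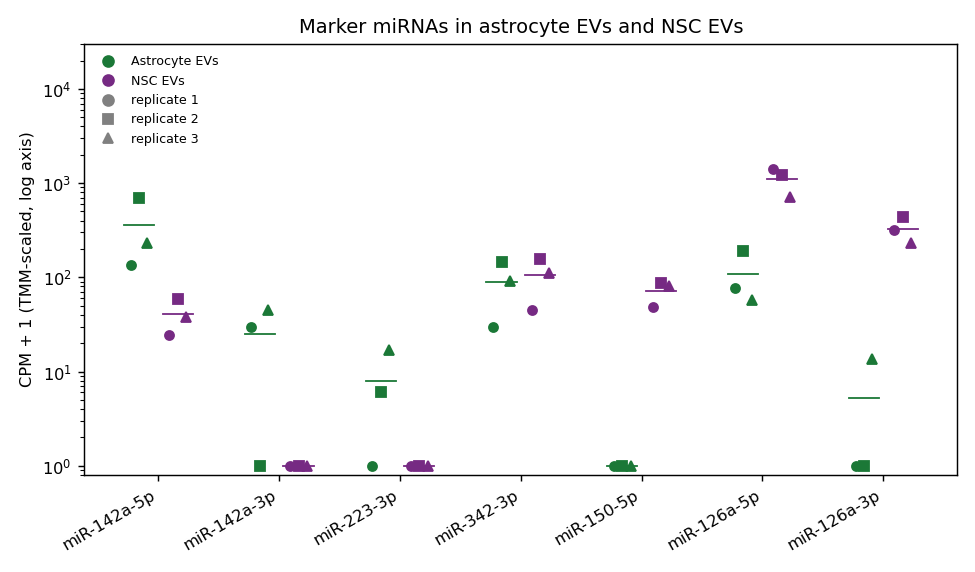
Level of each of the 7 marker miRNAs in every library, as TMM-scaled CPM plus 1 on a log axis, with astrocyte EVs (green) left of NSC EVs (purple), marker shapes for replicates and a line at each group mean. miR-142a-5p is higher in all 3 astrocyte EV libraries, miR-150-5p and both arms of miR-126a are lower in them, and miR-342-3p overlaps.

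Of the 7 members, 5 passed the filter on low counts, which asked for 48.4 CPM in at least 3 libraries, and edgeR's quasi-likelihood test called 1 higher and 3 lower in astrocyte EVs at a Benjamini-Hochberg adjusted p under 0.05. Over all 256 mature miRNAs tested, 22.3% were called higher and 25.8% lower, and the median log2 fold change was -0.06. Several members passed the filter mainly through the group in which they were high. miR-150-5p and miR-126a-3p reached the limit in 0 astrocyte EV libraries and in 3 NSC EV libraries, and miR-142a-5p in 3 astrocyte EV libraries and 1 NSC EV library. The counts of called members were again 1 higher and 3 lower without astrocyte EV replicate 3. Of the 15 alternative settings 1, a fit with a term for replicate number (replicate block), gave 1 higher and 2 lower.

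miR-142a-5p was the member that rose. It had 28, 139 and 73 counts in the astrocyte EV libraries, against 7, 13 and 6 counts in the NSC EV libraries. As CPM these were 133, 700 and 230 in astrocyte EVs (354 ± 303), against 23.5, 58.4 and 37.1 in NSC EVs (39.7 ± 17.6, SD, n = 3 each). The groups did not overlap, and astrocyte EV replicate 2 was the highest library. Groups that did not overlap were found for 64.8% of the mature miRNAs tested. The fitted log2 fold change was 3.15 (SE 0.79, 95% interval 1.30 to 4.99), an 8.87-fold higher level in astrocyte EVs (edgeR adjusted p = 0.0145). It was 2.24 (adjusted p = 0.0428) without astrocyte EV replicate 2, and adjusted p-values over the 16 alternative settings, of which 1 used the hairpin row, ranged between 2.03e-04 and 0.0464.

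The opposite arm, miR-142a-3p, was close to the detection limit. It had 6, 0 and 14 counts in the astrocyte EV libraries, against 0 counts in all 3 NSC EV libraries. The replicate with the most miR-142a-5p, astrocyte EV replicate 2, was the one with no miR-142a-3p. It did not pass the filter. Against a limit of 3 counts over the NSC EV group the pooled level in astrocyte EVs was 6.26-fold higher, but with 0 counts in astrocyte EV replicate 2 no least fold is read. The exact two-sided permutation test on CPM gave p = 0.4, where 0.1 is the smallest p that 3 against 3 libraries allow.

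miR-223-3p, the granulocyte and monocyte marker, was found in traces only. It had 0, 1 and 5 counts in the astrocyte EV libraries, against 0 counts in each NSC EV library. The pooled astrocyte EV level was 1.88-fold the same limit, but with 0 counts in astrocyte EV replicate 1 no least fold is read. The exact permutation test on CPM gave p = 0.4. Its opposite arm miR-223-5p had 0, 0 and 7 counts in astrocyte EVs and 0 in each NSC EV library. All 7 counts of miR-223-5p and 5 of the 6 counts of miR-223-3p came from astrocyte EV replicate 3. The row of F630028O10Rik, the transcript around miR-223, had 0, 4 and 12 counts in astrocyte EVs and 1, 0 and 2 in NSC EVs. All 12 counts in astrocyte EV replicate 3 were those of the mir-223 hairpin itself. Without the hairpin the row had 0, 3 and 0 counts in astrocyte EVs, against 1, 0 and 2 in NSC EVs.

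miR-150-5p, the lymphocyte miRNA, went the other way from miR-142a-5p. It had 0 counts in all 3 astrocyte EV libraries, against 14, 19 and 13 counts (46.9, 85.4 and 80.4 CPM, 70.9 ± 20.9, SD, n = 3) in the NSC EV libraries. With 3 counts over the astrocyte EV group as the limit, it was at least 16.3-fold lower in astrocyte EVs (edgeR adjusted p = 0.00666). Over the 16 alternative settings the adjusted p was between 3.12e-05 and 0.0648, past the threshold in 15 of them. The exception was the fit with the replicate block (edgeR adjusted p = 0.0648). The opposite arm miR-150-3p had 0 counts in each astrocyte EV library, against 10, 0 and 0 counts in NSC EVs, so it was seen in 1 library only.

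miR-342-3p was present in every library and the groups overlapped. It had 6, 29 and 29 counts in the astrocyte EV libraries (28.5, 146 and 91.3 CPM, 88.6 ± 58.8), against 13, 35 and 18 counts in the NSC EV libraries (43.6, 157 and 111 CPM, 104 ± 57.2, SD, n = 3 each). In each group replicate 1 was the lowest. The log2 fold change was -0.22 (SE 0.77), with a 95% interval of -2.02 to 1.57, so that levels between 0.247 and 2.97 times those of NSC EVs were within the error (edgeR adjusted p = 0.830).

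The other arm of the same hairpin, miR-342-5p, did pass the test. It had 15, 12 and 30 counts in the astrocyte EV libraries (71.3, 60.5 and 94.4 CPM, 75.4 ± 17.3), against 84, 68 and 101 counts in the NSC EV libraries (282, 306 and 625 CPM, 404 ± 192, SD, n = 3 each). All NSC EV libraries lay above all astrocyte EV libraries. The log2 fold change was -2.40 (SE 0.53), or 5.29-fold lower in astrocyte EVs (edgeR adjusted p = 0.00813).

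miR-126a-5p, an endothelial marker arm, was the most abundant member in NSC EVs. It had 16, 38 and 18 counts in the astrocyte EV libraries (76.0, 191 and 56.7 CPM, 108 ± 72.9), against 421, 269 and 114 counts in the NSC EV libraries (1412, 1209 and 705 CPM, 1109 ± 364, SD, n = 3 each). The lowest NSC EV library was above the highest astrocyte EV library. The log2 fold change was -3.37 (SE 0.60, 95% interval -4.77 to -1.96), a 10.3-fold lower level in astrocyte EVs (edgeR adjusted p = 0.00443). It was -4.07 without astrocyte EV replicate 2, the highest of its group.

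miR-126a-3p, the arm that restrains inhibitors of VEGF signaling, was lower as well. It had 0, 0 and 4 counts in the astrocyte EV libraries, against 95, 97 and 37 counts in the NSC EV libraries (319, 436 and 229 CPM, 328 ± 104, SD, n = 3). All 4 astrocyte EV counts came from replicate 3. The log2 fold change was -5.89 (SE 1.02, 95% interval -8.28 to -3.49), or 59.1-fold lower in astrocyte EVs (edgeR adjusted p = 0.00416), a value that rests on these 4 counts. With replicate 3 left out the astrocyte EVs held 0 counts, and the level was at least 45.7-fold lower.

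**Figure D2:**
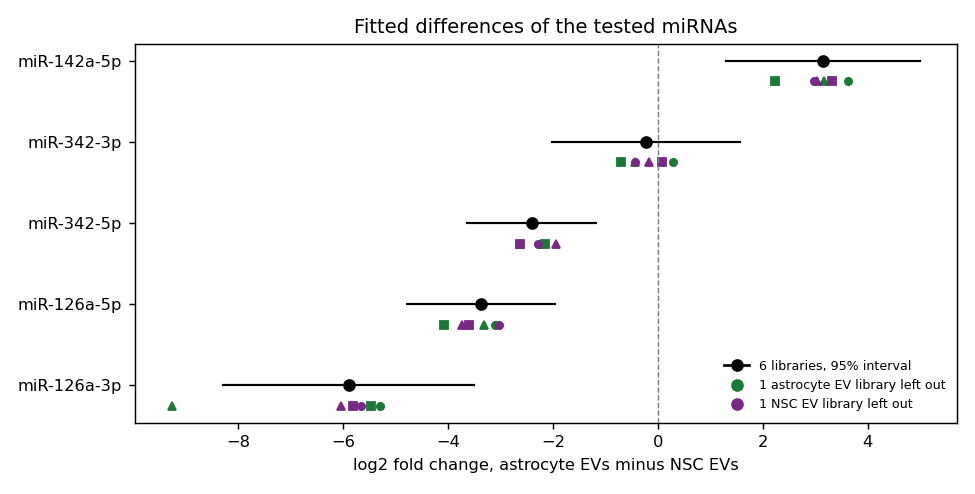
Log2 fold changes (astrocyte EVs minus NSC EVs) of the 4 tested marker miRNAs with counts in both EV types and of miR-342-5p: black points and lines are the fit of 6 libraries with its 95% interval, and small markers are fits with 1 library left out. miR-142a-5p stays above 0 and both arms of miR-126a and miR-342-5p stay below 0 whichever library is left out, while miR-342-3p crosses 0. The leftmost triangle, miR-126a-3p without astrocyte EV replicate 3, is a fit to 0 astrocyte EV counts and no bound.

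The order of the members differed between the EV types. All members are 21 to 23 bases long, so their CPM can be ranked without a length correction. In astrocyte EVs the order by mean CPM was miR-142a-5p, miR-126a-5p, miR-342-3p, miR-142a-3p, miR-223-3p, miR-126a-3p and miR-150-5p, and each neighbor in this order overlapped the next over the 3 libraries. In NSC EVs it was miR-126a-5p, miR-126a-3p, miR-342-3p, miR-150-5p and miR-142a-5p, with miR-142a-3p and miR-223-3p at 0 counts. There miR-126a-5p was apart from miR-126a-3p, and miR-126a-3p from miR-342-3p. miR-342-3p overlapped miR-150-5p, which overlapped miR-142a-5p, and miR-142a-5p was apart from the members at 0 counts. Among all mature rows miR-142a-5p ranked 120th in astrocyte EVs and 268th in NSC EVs, and miR-126a-5p ranked 182nd in astrocyte EVs and 70th in NSC EVs.

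Both arms of a hairpin come from the same transcript, and their counts can be set against each other within a library. For miR-126a the 3p arm made up 0%, 0% and 18.2% of the counts of both arms in the astrocyte EV libraries, against 18.4%, 26.5% and 24.5% in the NSC EV libraries. The pooled share was 5.26% in astrocyte EVs (95% Wilson interval 2.07% to 12.8%, 4 counts of 3p and 72 of 5p) and 22.2% in NSC EVs (19.7% to 24.8%, 229 counts of 3p and 804 of 5p). On the log2 scale, with 1 count added to each arm, the 3p to 5p ratio differed by -2.03 (exact two-sided permutation p = 0.2, 0.4 after adjustment over 2 hairpins), and by -1.27 without astrocyte EV replicate 2. With no counts added only astrocyte EV replicate 3 held both arms, and its log2 ratio differed from that of NSC EVs by -0.42. Where an arm is at 0, the ratio is set by the added count and the count of the other arm, and so by depth. For miR-142a the 3p arm made up 17.6%, 0% and 16.1% in the astrocyte EV libraries, and 0 of 26 counts in NSC EVs, which a 95% Wilson interval limits to 12.9%. With 0 counts of the 3p arm in 4 of the 6 libraries, its log2 ratio was set mostly by the added count and the 5p count, and no difference is read from it.

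For miR-342, a hairpin added after its values were seen and given without a test, the 3p arm made up 28.6%, 70.7% and 49.2% of counts in the astrocyte EV libraries, against 13.4%, 34.0% and 15.1% in the NSC EV libraries. Astrocyte EV replicate 1 lay below NSC EV replicate 2, so the groups overlapped. Pooled over libraries the share was 52.9% in astrocyte EVs (64 counts of 3p and 57 of 5p) and 20.7% in NSC EVs (66 counts of 3p and 253 of 5p).

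**Figure D3:**
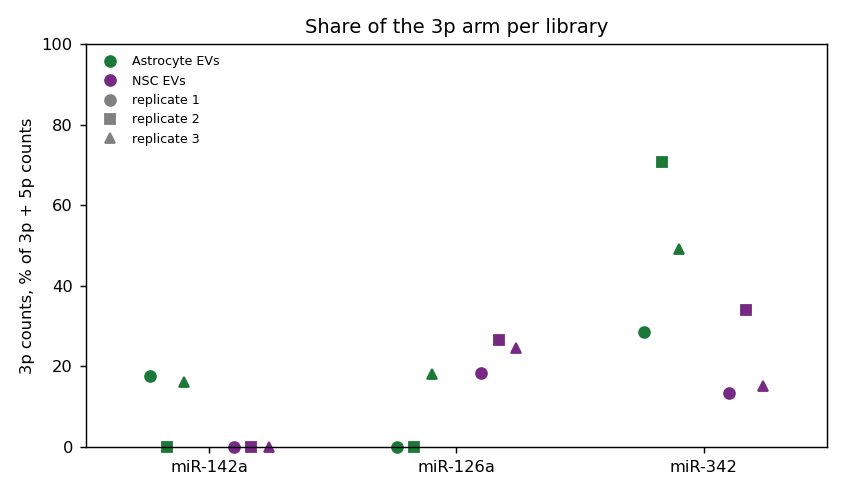
Share of 3p counts among the 3p and 5p counts of miR-142a, miR-126a and miR-342 in each library, astrocyte EVs (green) left of NSC EVs (purple). The 3p share of miR-126a is 0% in astrocyte EV replicates 1 and 2 and 18.2% in replicate 3, against 18.4% to 26.5% in NSC EVs, while miR-342 reaches 70.7% in astrocyte EVs and at most 34.0% in NSC EVs.

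The genes around the hairpins gave a further readout of these loci. The row of Egfl7, the endothelial secreted protein gene that holds miR-126a, had 44, 90 and 163 counts in the astrocyte EV libraries, against 578, 430 and 226 in the NSC EV libraries. In a fit of all rows except hairpins it fell by 2.53 on the log2 scale (SE 0.41, edgeR adjusted p = 0.0170). The row counts reads over the span of the gene, miRNA reads included: 203 of 203 RefSeq rows that span a hairpin with at least 10 counts held at least 95% of the hairpin's counts. The mir-126a hairpin alone made up 36.4%, 42.2% and 13.5% of the Egfl7 row in astrocyte EVs, against 89.1%, 85.1% and 64.6% in NSC EVs. Without the hairpin the row had 28, 52 and 141 counts in astrocyte EVs (0.772 ± 0.472 CPM of non-hairpin counts), against 63, 64 and 80 counts in NSC EVs (1.45 ± 0.131 CPM, SD, n = 3 each). These CPM are without TMM. The remaining log2 fold change, with TMM, was -0.50 (SE 0.35, 95% interval -1.29 to 0.29, edgeR adjusted p = 0.370). The call of the whole row was also lost without astrocyte EV replicate 1, astrocyte EV replicate 2 or NSC EV replicate 3, where the highest adjusted p was 0.0707.

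Evl, a regulator of actin filaments that holds miR-342, was mostly counts outside the hairpin. Its row had 784, 1458 and 2582 counts in the astrocyte EV libraries, against 1450, 2166 and 1979 in those of NSC EVs, of which mir-342 made up 2.29% to 2.81% in astrocyte EVs, against 4.76% to 6.69% in NSC EVs. The whole row had a log2 fold change of -0.66 (SE 0.30, 95% interval -1.36 to 0.03, edgeR adjusted p = 0.188), and -0.62 (adjusted p = 0.218) without the hairpin counts.

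**Figure D4:**
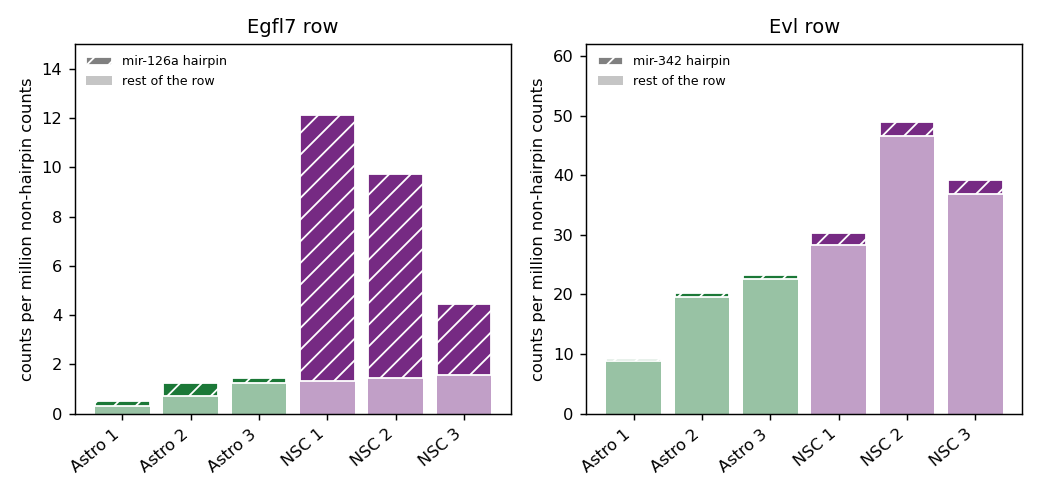
CPM, of all non-hairpin counts, in the rows of Egfl7 (left) and Evl (right) in each library, astrocyte EVs (green) left of NSC EVs (purple), with the hatched part of a bar from the miRNA hairpin inside the gene and the pale part from the rest of the row. The mir-126a hairpin makes up 64.6% to 89.1% of the Egfl7 row in NSC EVs, while mir-342 makes up at most 6.69% of the Evl row. These CPM are without TMM.

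Other marker miRNAs of the same cell types moved in part in other directions than the members. Of 10 other white blood cell and microglial miRNAs 9 were tested, of which 5 rose, 1 fell and 3 did not pass, with a median log2 fold change of 2.91 against -0.06 over all tested miRNAs. miR-146b-5p, which dampens innate immune signaling, had 2366, 1886 and 2771 counts in astrocyte EVs against 287, 107 and 116 in NSC EVs, with a log2 fold change of 3.77 (edgeR adjusted p = 8.95e-04). miR-155-5p, induced in activated immune cells, had 406, 498 and 222 counts in astrocyte EVs against 84, 55 and 23 in NSC EVs, with a log2 fold change of 2.93 (adjusted p = 0.00617). miR-21a-5p, which many cell types make, rose by 2.91. miR-29a-3p and miR-29b-3p rose by 3.55 (adjusted p = 0.0186) and 3.30 (adjusted p = 0.0164). Which cells these miRNAs came from was not tested, so the tally is not read as a white blood cell signal. miR-181a-5p, known from lymphocyte development and also abundant in neural tissue, fell by 1.47 (adjusted p = 0.0321).

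Of 9 other endothelial and perivascular miRNAs 6 were tested, of which 4 rose, 0 fell and 2 did not pass, with a median log2 fold change of 1.67. The count at an unadjusted p under 0.05 was also 4, as was that of DESeq2. This direction is the opposite of that of both miR-126a arms. miR-10b-5p had 122, 200 and 509 counts in astrocyte EVs against 8, 5 and 7 in NSC EVs, with a log2 fold change of 5.11 (edgeR adjusted p = 0.00146). miR-143-3p, of smooth muscle and pericytes, had 10763, 10736 and 1220 counts in astrocyte EVs against 264, 113 and 93 in NSC EVs, with a log2 fold change of 5.79 (adjusted p = 0.00427). miR-221-3p and miR-222-3p, which share a cluster, had log2 fold changes of 1.37 (adjusted p = 0.0143) and 1.97 (adjusted p = 0.00666). With astrocyte EV replicate 3 left out, 9 members of this list were tested and 6 rose. The added members were miR-145a-5p, miR-145a-3p and miR-143-5p, with 34 to 50 counts in astrocyte EV replicates 1 and 2. They had 0 to 8 counts in the NSC EV libraries and passed the filter through astrocyte EVs alone, so the larger tally is no added support.

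Markers of other cells the cultures could hold were read in the same fit. Of 7 red blood cell miRNAs 6 were tested, 5 rose and 0 fell, with a median log2 fold change of 5.46, also with miR-451a set to its bound. miR-451a, an erythroid miRNA, had 77, 160 and 152 counts in astrocyte EVs and 0 in each NSC EV library, at least 122-fold higher. Without astrocyte EV replicate 3, 5 rose and 1 fell. miR-486a-5p and miR-486b-5p had nearly the same counts, so their reads could not be told apart. Of 5 mesenchymal miRNAs 2 were tested and both rose, but these were miR-199a-3p and miR-199b-3p, with identical counts (8368, 8518 and 867 in astrocyte EVs, against 283, 104 and 46 in NSC EVs, log2 fold change 5.64, edgeR adjusted p = 0.00616). Without astrocyte EV replicate 3, 5 were tested and 5 rose. The added members miR-199a-5p, miR-214-3p and miR-214-5p had 0 to 2 counts in the NSC EV libraries. They too passed the filter through astrocyte EVs alone, so this tally is no added support. Of 4 liver and serum miRNAs, 3 were in the table and 2 were tested, and 0 were called by edgeR, by DESeq2 or at an unadjusted p under 0.05 (median log2 fold change 0.61). The liver miRNA miR-122-5p had 341, 1165 and 991 counts in astrocyte EVs and 607, 399 and 334 in NSC EVs, with a log2 fold change of 0.85 (edgeR adjusted p = 0.175). The part of these cell types in the levels of the members was not tested.

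**Figure D5:**
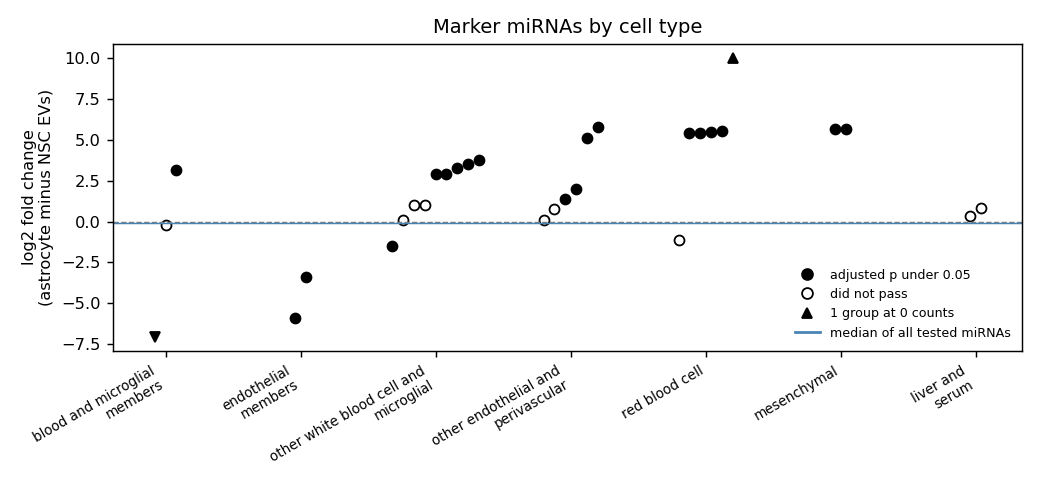
Log2 fold change (astrocyte EVs minus NSC EVs) of each tested marker miRNA, grouped by cell type, with filled symbols for an adjusted p under 0.05. Triangles mark miR-150-5p and miR-451a, whose fitted values are no bound because 1 group had 0 counts. Both miR-126a arms lie below 0, while 4 of the 6 other endothelial and perivascular miRNAs rose.

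mRNA markers of the same cell types were read in RefSeq gene rows. Of 17739 such rows tested 6.02% were called higher and 3.39% lower, with a median log2 fold change of 0.03. As for Evl, a row counts reads over the span of the gene, introns included. Its counts may therefore come from introns or other small RNAs inside the gene, and the mRNA part was not separated. Calls among non-hairpin rows depended on single libraries. edgeR called 4040 of 41308 such rows with all 6 libraries (12086 at an unadjusted p under 0.05). It called 0 of 42189 without astrocyte EV replicate 1 (9885 at an unadjusted p under 0.05), 0 of 42002 without astrocyte EV replicate 2 (9729), and 18 of 43585 without NSC EV replicate 3. DESeq2 called 7890 with all 6.

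Of 16 microglial and myeloid mRNAs 13 were tested, 1 rose and 0 fell, with a median log2 fold change of -0.25. The one that rose was Ctss, a lysosomal protease gene, with 398, 580 and 419 counts in astrocyte EVs against 53, 97 and 87 in NSC EVs, with a log2 fold change of 2.42 (edgeR adjusted p = 0.0276). The number of these mRNAs that rose was also 1 without astrocyte EV replicate 3. The call of Ctss was lost without astrocyte EV replicate 1 or replicate 2, where 0 non-hairpin rows were called. At an unadjusted p under 0.05, 1 was higher (Ctss) and 1 lower (C1qa). C1qa had 10, 11 and 68 counts in astrocyte EVs and 7, 128 and 90 in NSC EVs (log2 fold change -2.03, edgeR adjusted p = 0.161). Tmem119, a defining microglial gene, had 32, 48 and 123 counts in astrocyte EVs and 28, 106 and 76 in NSC EVs (log2 fold change -0.56, adjusted p = 0.468). Cd68 had 0 to 4 counts a library, and was the list's only row at 0 in a library.

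Of 9 lymphocyte mRNAs 8 were tested (median log2 fold change 0.01) and 0 were called by edgeR, by DESeq2 or at an unadjusted p under 0.05, with sums of 2.10 to 7.70 CPM in astrocyte EVs, against 4.84 to 7.28 CPM in NSC EVs. The B cell gene Ms4a1 had 32, 58 and 128 counts in astrocyte EVs and 31, 27 and 32 in NSC EVs, whose libraries held fewer counts (log2 fold change 0.75, edgeR adjusted p = 0.194). Of 11 endothelial mRNAs 10 were tested (median log2 fold change 0.25), 0 rose and 1 fell, which was Egfl7 with its hairpin reads. At an unadjusted p under 0.05, 3 were higher (Cdh5, Flt1 and Tek) and 2 lower (Egfl7 and Emcn), a level that 12086 of all 41308 non-hairpin rows reached. The sums were 52.5 to 123 CPM in astrocyte EVs, against 83.2 to 117 CPM in NSC EVs. Tek, the angiopoietin receptor and the most abundant of the list, had 1728, 3368 and 5620 counts in astrocyte EVs, against 1650, 911 and 1414 in NSC EVs, with a log2 fold change of 0.97 (edgeR adjusted p = 0.120). Of 7 red blood cell mRNAs 4 were in the table and 1 was tested, and edgeR called 0 (1 at an unadjusted p under 0.05, and 1 with DESeq2). The tested row was Alas2, the heme synthesis enzyme of red blood cell precursors, with 9, 4 and 15 counts in astrocyte EVs, against 35, 26 and 22 in NSC EVs, and a log2 fold change of -1.94 (edgeR adjusted p = 0.0633), below 0 where most red blood cell miRNAs were above it.

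The labelled cell types were checked in the same rows. Of 10 astrocyte mRNAs 2 rose and 0 fell, with a median log2 fold change of 0.35, and 3 were higher and 0 lower at an unadjusted p under 0.05. Their sums, without TMM and so on another scale than the fold changes, were 17.5 to 38.1 CPM in astrocyte EVs, against 36.7 to 61.0 CPM in NSC EVs. Slc1a2, the most abundant of the list, had a log2 fold change of -0.80 (edgeR adjusted p = 0.226). Gfap had 89, 107 and 451 counts in astrocyte EVs against 33, 51 and 31 in NSC EVs (log2 fold change 1.85, edgeR adjusted p = 0.0263), and Aldoc had a log2 fold change of 1.32 (adjusted p = 0.0448). Of 11 neural stem cell mRNAs 10 were tested, 0 rose and 1 fell, with a median log2 fold change of 0.18. By unadjusted edgeR p under 0.05, 2 were higher (Dlx2 and Mki67) and 1 lower (Fabp7). Fabp7, of neural progenitors, had 1, 8 and 10 counts in astrocyte EVs against 50, 19 and 46 in NSC EVs, with a log2 fold change of -3.09 (adjusted p = 0.0304). Without astrocyte EV replicate 3, 1 astrocyte mRNA rose, and in the neural stem cell list 1 rose and 0 fell. The calls of Gfap, Aldoc and Fabp7 were lost without astrocyte EV replicate 1 or replicate 2, where 0 non-hairpin rows were called.

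The mature miRNAs with the most similar course over the 6 libraries were found by the root-mean-square difference of centered log2(CPM + 1) values. Nearest to miR-142a-5p was miR-3068-5p (0.66, against a median of 1.97 over all tested miRNAs), followed by miR-23b-3p (0.71) and miR-21a-5p (0.75). Nearest to miR-150-5p were miR-216b-5p (0.12), miR-325-5p (0.15) and miR-128-3p (0.23), against a median of 3.05. Nearest to miR-126a-5p were miR-487b-3p (0.66), let-7g-5p (0.67) and miR-149-5p (0.75), against 2.03. Nearest to miR-126a-3p were miR-6540-5p (0.69), miR-335-3p (1.02) and miR-7a-5p (1.28), against 3.72. Neither arm of miR-126a was among the 3 nearest of the other. But miR-126a-3p had 0 counts in astrocyte EV replicates 1 and 2, where its value is set by the added 1, so no difference in course is read. The same holds for the values of miR-150-5p in all 3 astrocyte EV libraries. Nearest to miR-342-3p were miR-101a-3p (0.53), miR-369-3p (0.59) and miR-7224-3p (0.62), against 1.45. These distances describe 6 libraries and carry no test.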

How the data were processed

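EVs were purified from culture medium, and RNA was extracted with Trizol and SeraMir columns. The authors deposited raw counts, as whole numbers without normalization, for 61949 annotated rows, of which 902 are mature miRNAs and 788 hairpins. Per the submitters' processing notes the mm10 build was used with Bowtie, Bowtie2, bedtools, SAMtools, cutadapt, FastQC and DESeq, whose versions are not given, on what the study's methods call the Banana Slug Analytics Platform. The sources used here do not say how multi-mapping reads or strand were handled. The library kit and sequencer differ between the paper and the series record. Deposited tables of DESeq group means, fold changes and p-values were not used.

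Mature rows were tested with edgeR 4.0.16 in R 4.3.3 (glmQLFit, TMM, filterByExpr by group), with library size as the sum of mature counts and Benjamini-Hochberg adjustment over 256 rows. TMM factors ranged between 0.796 and 1.16, and the biological coefficient of variation was 0.581. Non-hairpin rows were fitted the same way. Arm ratios were tested with exact permutation tests (SciPy 1.17.1). Replicates differed by more than sampling noise (chi-square per degree of freedom at least 20.7). The code was tested on simulated data. The named miRNAs were all members, their opposite arms, up to 4 per marker list that passed or were most abundant, the 3 nearest profiles, host genes and mRNA markers. The members and lists were chosen with earlier results of these data known. Alternatives were DESeq2 1.42.0, other scalings, filters and library sizes, a replicate block, hairpin rows and leaving out each library. Host rows without hairpin counts were added after seeing the data. The summed level of the microglial mRNA list is not reported here.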

Additional observations from a re-analysis of the deposited data

How the results depend on the processing

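The calls of miR-142a-5p, miR-342-5p and both miR-126a arms held under all 15 alternatives run on their own rows. Hairpin rows hold the reads of both arms and do not test an arm: there mir-126a was at -3.58 (adjusted p = 0.00292), mir-142a at 3.27 (0.00785), and mir-342 passed the test at -1.47 (adjusted p = 0.0408), which miR-342-3p did not. Without 1 library each, log2 fold changes ranged between 2.24 and 3.62 for miR-142a-5p, -4.07 and -3.02 for miR-126a-5p, -9.25 and -5.29 for miR-126a-3p, and -0.70 and 0.29 for miR-342-3p. The difference in log2 arm ratio ranged between -1.51 and 1.03 for miR-142a, where the lone reversal, without astrocyte EV replicate 2, rests on added counts, and between -2.95 and -1.27 for miR-126a. Whether replicate numbers pair the libraries was not settled. Same-numbered libraries had correlated deviations of 0.05, 0.10 and 0.05, all at most 0.1, but each library correlated best with its own number. With the replicate block miR-150-5p was at -7.08 (adjusted p = 0.0648), no other call of a tested member changed, and 45 mature miRNAs were higher and 55 lower, against 57 and 66 without it. With library size from all non-hairpin rows, 32 were higher and 96 lower, and miR-142a-5p was at 2.37 and miR-126a-5p at -4.29. Without 1 library each, 34 to 69 were higher and 45 to 93 lower. Without 1 library each, the members' mean share of mature counts was 0.0333% to 0.0673% in astrocyte EVs, against 0.159% to 0.212% in NSC EVs. Relative to the total of non-hairpin rows, the members took 1.60e-04% of counts in astrocyte EVs, against 8.34e-04% in NSC EVs. Among the non-hairpin rows tested, 2290 were higher and 1750 lower. These counts were 4203 and 3687 with DESeq2, 738 and 3217 without TMM, and 668 and 577 with the block. Without 1 library each, 0 to 2786 were higher and 0 to 1572 lower. Depth limits miR-142a-3p, miR-223-3p and the astrocyte EV level of miR-126a-3p, which rest on 20 counts or fewer.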
